A study of Mus musculus with 6 samples.

Results

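The integrated stress response genes are 35 of the 26881 genes in the heart expression table, chosen by name from the gene column. They comprise transcription factors, enzymes of amino acid and one-carbon synthesis, amino acid transporters, cytosolic tRNA synthetases, secreted factors, and feedback and stress effectors. From 2-week-old mice, 3 heart libraries were sequenced for Cfp1-cKO (Myh6-Cre: Cfp1flox/flox, labelled CXXC1 null) and 3 for WT controls. In Cfp1-cKO mice the Myh6 promoter drives Cre in cardiomyocytes, while the RNA came from the whole heart with all of its cell types. The alleles carried by the WT mice, and whether a library holds 1 heart or several, are not given in the sources used here, so p-values measure the spread between these libraries. In such bulk RNA, fewer cells of a type and less RNA per cell cannot be told apart. Values are FPKM, fragments per kilobase of transcript relative to the library's total.

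The integrated stress response is a conserved reaction in which kinases phosphorylate the translation factor eIF2alpha, which lowers general protein synthesis and favours translation of the transcription factor Atf4. Atf4, often with C/EBP partners, binds C/EBP-ATF response elements and raises genes for amino acid synthesis, amino acid import, tRNA charging and feedback control of the pathway. In the heart the response is known to follow mitochondrial stress, and its secreted products Fgf21 and Gdf15 are measured as markers of it.

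Several Atf4 target genes were higher in Cfp1-cKO hearts, and Atf4 itself was not called. Asns, which makes asparagine, rose 8.34-fold between the group means, and Mthfd2, Aldh18a1, Phgdh and Nupr1 rose between 3.05 and 5.70-fold. Without Cfp1-cKO 2 the folds were 4.76 for Asns and 2.89 for Mthfd2, and without WT 3 that of Aldh18a1 was 7.56. With median-of-ratios scaling, which evens out library levels, only Asns of these 5 was called. Gdf15 rose from below 0.1 FPKM in every WT library to between 0.749 and 5.02 FPKM, and it was not called with that scaling. A small set with Ddit4, Vldlr, Chac1 and Cebpb stood lower on average in Cfp1-cKO hearts by 1.54-fold or more, without passing the test on the deposited values, and without WT 1 the Cebpb mean of Cfp1-cKO libraries was 0.831 times that of WT. Genes were called at a limma adjusted p (Benjamini-Hochberg over all tested genes) below 0.05 with an absolute log2 fold change above 0.5. The fit used log2(FPKM + 1), on which the changes of low genes are understated. Of the 35 members, 30 had a mean of at least 1 FPKM and were tested, and Mthfd1l, Pycr1, Cth, Slc7a11 and Fgf21 were not.

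Library totals worked back from the FPKM values ranged from 16672652 to 22700811 fragments, and genes of the mitochondrial genome took 36.6% to 38.9% of them in WT and 29.4% to 34.7% in Cfp1-cKO libraries. Cxxc1, the targeted gene, ranged from 9.66 to 12.9 FPKM in WT and from 8.02 to 9.94 FPKM in Cfp1-cKO hearts over its whole length, overlapping between the groups, with a log2 fold change of -0.26 (limma adjusted p = 0.249), or -0.66 (limma adjusted p = 0.0571) after median-of-ratios scaling. Markers of other cells moved with the genotype beside the member changes. All 12 lung epithelium markers were called higher, their sum rising from between 0.348 and 3.94 FPKM in WT to between 3235 and 4907 FPKM in Cfp1-cKO libraries, led by Sftpc and Scgb1a1. Lamp3, Cldn18 and Nkx2-1 were at 0 in all WT libraries. Of 8 leukocyte markers, Cd74, Cd68 and Csf1r were called higher of 4 tested, and the sum ranged from 6.74 to 12.6 FPKM in WT and from 82.2 to 139 FPKM in Cfp1-cKO libraries. Most of the latter was Cd74, with 64.0, 102 and 122 FPKM in the Cfp1-cKO libraries. Mean levels of the others changed less than that of Cd74. Cd68 rose from 1.90 to 5.48 FPKM, Ptprc from 0.283 to 0.912 FPKM and Cd79a from 0.0958 to 0.682 FPKM. The smallest change was that of Itgam, from 0.289 to 0.353 FPKM. The part of lung and leukocyte RNA in the member changes was not tested.

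Of the 30 tested members, 11 were called higher in Cfp1-cKO hearts (36.7%), beside 21.1% of the 11017 genes tested. Of the 11, Gdf15, Sesn2, Asns, Mthfd2, Phgdh and Slc7a5 had WT means below 1 FPKM. They passed the filter only through their Cfp1-cKO values. The same filter applied to all genes, but how many of all called genes passed it in this way was not counted. The member share beside that of all genes therefore cannot be read apart from this selection. With a filter at a mean of 5 FPKM, 3 members and 1027 genes were called higher. With no filter, 3 members and 1518 genes were called higher. With the filter, none of the 30 was called lower by limma, beside 1.68% of tested genes, and none by limma-voom on fragments. At an unadjusted p below 0.05, limma and limma-voom each had 2 members lower, Ddit4 and Vldlr, beside 3.09% and 2.94% of all tested genes. They had 18 and 19 members higher. With median-of-ratios scaling limma had 8 members higher and 4 lower at that p, the latter beside 12% of all tested genes. The share of all tested genes higher at that p was not computed. Counts of genes higher at it, here and below, therefore cannot be judged against all genes. The median log2 fold change was 0.52 over the tested members and 0.35 over all tested genes, so most of the table stood higher in Cfp1-cKO libraries. Median-of-ratios scaling brought the median of all tested genes to 0.00 and that of the members to 0.16. With it 1 member was called higher, Asns, beside 3.74% of tested genes, and 1 lower, Vldlr, beside 3.25%. Over all tested genes the split changed from 2325 higher and 185 lower to 412 higher and 358 lower. A positive log2 fold change was found for 26 of the 30 tested members as deposited, beside 83.6% of all tested genes. After scaling it was found for 20, beside 50.5%. Atf4, Psat1, Slc3a2, Gars, Eprs and Eif4ebp1 were the members whose sign turned from positive to negative.

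**Figure D1:**
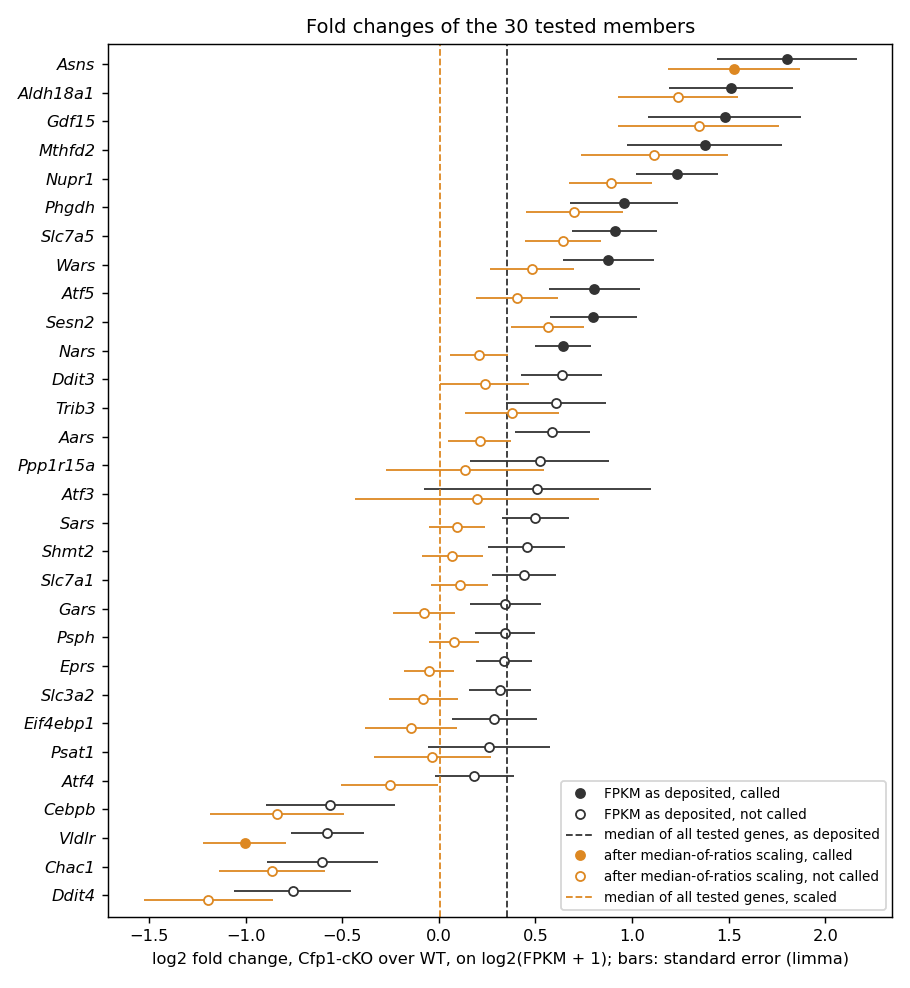
Log2 fold change (Cfp1-cKO over WT, on the log2(FPKM + 1) scale) of the 30 tested members, with standard errors from limma, from FPKM as deposited (dark) and after median-of-ratios scaling (orange); filled points were called and dashed lines mark the median of all tested genes. Asns stands highest at 1.80 and 1.53 in the respective fits, and Ddit4 lowest at -0.76 and -1.19.

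The groups did not overlap for many members. Every Cfp1-cKO library stood above every WT library in 18 of the 30 tested members (60%), beside 46.4% of all tested genes, and below in 1 member, Vldlr, beside 3.23%. After scaling the counts were 10 members above (33.3%), beside 16.7% of tested genes, and 4 below (13.3%), beside 14.9%. The 4 members that stood below were Cebpb, Chac1, Ddit4 and Vldlr. The count of calls moved with single libraries, for the members and for all tested genes. Without Cfp1-cKO 2, 2 members were called higher (Asns and Nupr1), beside 538 genes, and without WT 1 only Nupr1 was, beside 619. There were 5 members without Cfp1-cKO 3, beside 954 genes, and 5 without WT 2, beside 1513. Without Cfp1-cKO 1 there were 9, beside 1742 genes, and without WT 3 there were 11, beside 2588. Chac1 was called lower without WT 2, beside 170 genes, and Ddit4 without WT 3, beside 201.

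Sequence upstream of the members was read for the core of the C/EBP-ATF response element, TGATGNAA, on both strands of the RefSeq promoter windows (GRCm38.p6), which run from 250 bases before to 50 bases after a gene's start. Windows were given for 30 members. The motif was in the windows of 11 of these (36.7%), beside 4.51% of all 27025 genes with a window and 2.64% of the 8188 tested genes with one. The 11 were Atf3, Nupr1, Asns, Pycr1, Slc7a11, Aars, Gars, Fgf21, Trib3, Chac1 and Vldlr. Of the 8 members that were called higher and had a window, 2 held the motif, Asns and Nupr1, so it occurred both in members that rose and in members that did not. Such a match is a description of letters and says nothing about binding. The stretches given here are those of the called members, of the members with lower mean levels, and of Fgf21 and Slc7a11, the latter with a motif on each strand. Each is written on the gene's strand from 5′ to 3′, with the motif or its reverse complement in capitals.
Asns, 23 bases before the start, chr6:7693214-7693243, minus strand: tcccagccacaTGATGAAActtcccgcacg
Nupr1, 110 bases before the start, chr7:126625562-126625591, minus strand: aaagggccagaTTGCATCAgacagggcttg
Chac1, 193 bases before the start, chr2:119351038-119351067, plus strand: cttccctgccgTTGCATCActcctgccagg
Vldlr, 200 bases before the start, chr19:27216809-27216838, plus strand: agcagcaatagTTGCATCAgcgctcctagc
Fgf21, 139 bases before the start, chr7:45615611-45615640, minus strand: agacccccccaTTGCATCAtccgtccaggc
Slc7a11, 66 bases before the start, chr3:50443661-50443690, minus strand: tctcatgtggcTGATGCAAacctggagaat
Slc7a11, 47 bases before the start, chr3:50443642-50443671, minus strand: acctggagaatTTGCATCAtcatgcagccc
The Asns, Nupr1 and Vldlr stretches also lie in an exon of another transcript model of the same gene in GENCODE M21, and the others lie in no exon of it. Nupr1, Chac1, Vldlr and Fgf21 hold the same 8 letters in the same orientation, TTGCATCA. Slc7a11 holds these letters and their reverse complement.

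**Figure D2:**
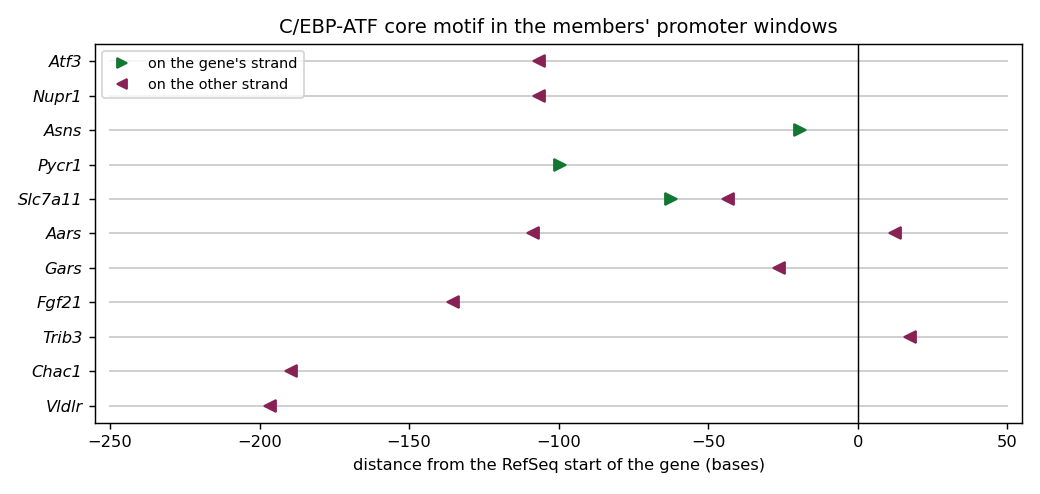
Position of the C/EBP-ATF core motif in the promoter windows of the 11 members that hold it, as distance in bases from the RefSeq start; triangles point right where the motif is on the gene's strand and left where it is on the other strand. Most matches lie before the start, and those of Trib3 and the second of Aars lie after it.

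**Figure D3:**
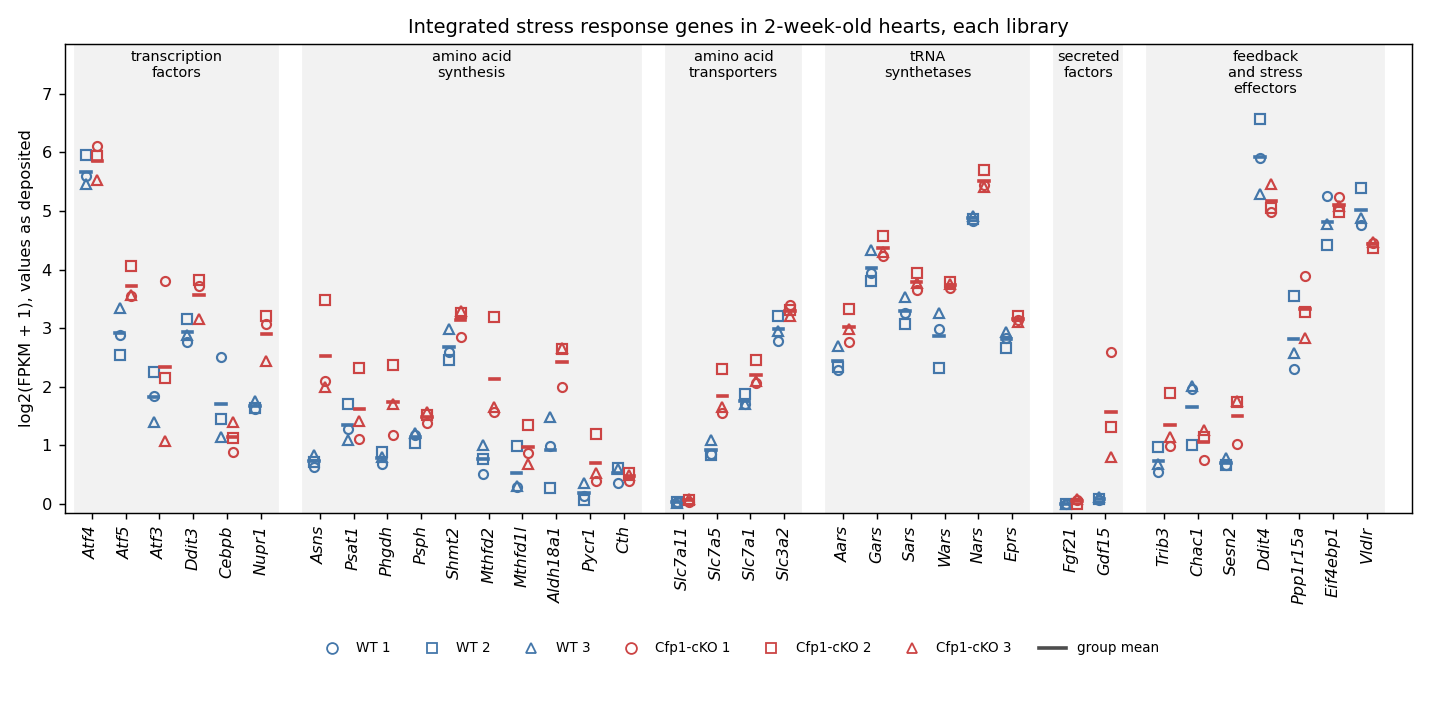
Level of each of the 35 members in every library as log2(FPKM + 1) by role, with WT in blue, Cfp1-cKO in red, symbols for the library number and bars for group means. Asns, Mthfd2, Aldh18a1, Nupr1 and Gdf15 show Cfp1-cKO libraries clear of WT, and Atf4 overlaps.

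Of the 6 transcription factors, Nupr1 and Atf5 were called higher, and Atf4, Atf3, Ddit3 and Cebpb were not called. Atf4 (ENSMUSG00000042406, chr15:80255184-80257540, GRCm38) had 47.7, 61.0 and 42.9 FPKM in the WT libraries and 68.0, 60.1 and 45.0 FPKM in the Cfp1-cKO libraries. The groups overlapped, and its log2 fold change was 0.18 (SE 0.20, limma adjusted p = 0.497), or -0.25 (limma adjusted p = 0.561) after scaling. Atf4 is controlled largely at translation, and protein was not measured here. It was among the most abundant members, and its RNA level was above those of the other 5 factors in every library.

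Nupr1, a small stress-induced chromatin protein, had 2.07, 2.11 and 2.39 FPKM in the WT libraries and 7.39, 8.21 and 4.44 FPKM in the Cfp1-cKO libraries. Its lowest Cfp1-cKO value was well above its highest WT value, and the WT values lay close together (2.19 ± 0.173 FPKM, SD, n = 3). The log2 fold change was 1.23 (SE 0.21, limma adjusted p = 0.00996), and 0.89 (limma adjusted p = 0.0506) after scaling. Nupr1 was the only member called with any 1 library left out, where its log2 fold change ranged from 1.08 to 1.46.

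Atf5, a relative of Atf4 tied to the mitochondrial stress response, had 6.37, 4.85 and 9.14 FPKM in the WT libraries and 10.7, 15.6 and 10.9 FPKM in the Cfp1-cKO libraries. The groups did not overlap as deposited but did after scaling, with log2 fold changes of 0.80 (SE 0.24, limma adjusted p = 0.0419) and 0.41 (limma adjusted p = 0.275). The call ended without WT 1 (limma adjusted p = 0.112), WT 2 (0.0843) or any 1 of Cfp1-cKO 1, 2 and 3 (0.0621, 0.148 and 0.0779). Ddit3, the pro-apoptotic factor also called Chop, had 5.76, 7.93 and 6.42 FPKM in the WT libraries and 12.2, 13.2 and 7.97 FPKM in the Cfp1-cKO libraries. Its lowest Cfp1-cKO value barely exceeded its highest WT value, and its log2 fold change of 0.63 (SE 0.21, limma adjusted p = 0.0569) missed the threshold. Without Cfp1-cKO 3 it passed, at 0.84 (limma adjusted p = 0.0386). Exons of Atf5 share 82 bases with Nup62 on the opposite strand, and those of Ddit3 share 68 bases with Mars. How strand was counted is not given in the sources used here, so fragments there cannot be told apart.

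Atf3, an immediate early stress factor, ranged from 1.65 to 3.74 FPKM in WT and from 1.11 to 13.0 FPKM in Cfp1-cKO hearts, with the highest value in Cfp1-cKO 1. Its log2 fold change of 0.51 (SE 0.59, limma adjusted p = 0.515) turned to -0.22 without that library. Cebpb, a C/EBP partner of Atf4, ranged from 1.22 to 4.69 FPKM in WT and from 0.853 to 1.62 FPKM in Cfp1-cKO hearts. The log2 fold change of Cebpb was -0.56 (SE 0.33, limma adjusted p = 0.215), and its exons share 312 bases with Tmem189 on the opposite strand.

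Of the 10 enzymes of amino acid and one-carbon synthesis, 7 were tested, and Asns, Aldh18a1, Mthfd2 and Phgdh were called higher. The median log2 fold change of the 7 was 0.96, or 0.70 after scaling, against 0.35 and 0.00 over all tested genes. Asns, asparagine synthetase (ENSMUSG00000029752, chr6:7675169-7693254), had 0.548, 0.640 and 0.792 FPKM in the WT libraries and 3.30, 10.2 and 2.98 FPKM in the Cfp1-cKO libraries. All 3 Cfp1-cKO values were more than 3 times the highest WT value, with the highest in Cfp1-cKO 2. The log2 fold change was 1.80 (SE 0.36, limma adjusted p = 0.0155), and 1.53 (SE 0.34, limma adjusted p = 0.0402) after scaling. Without WT 1 the adjusted p from limma was 0.0507 as deposited, and after scaling it was 0.130 without WT 1, 0.0790 without WT 2, 0.0611 without WT 3 and 0.0752 without Cfp1-cKO 1.

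Mthfd2, a mitochondrial folate enzyme that is low in most adult tissues, had 0.430, 0.700 and 1.02 FPKM in the WT libraries and 1.99, 8.10 and 2.15 FPKM in the Cfp1-cKO libraries. As for Asns, the highest value was in Cfp1-cKO 2, and the groups did not overlap. The log2 fold change of Mthfd2 was 1.38 (SE 0.40, limma adjusted p = 0.0413), or 1.11 (limma adjusted p = 0.127) after scaling. Without Cfp1-cKO 2 it was 0.85 (limma adjusted p = 0.0604), and the call also ended without Cfp1-cKO 3 (0.0576), WT 1 (0.113) or WT 2 (0.0732).

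Aldh18a1, which opens proline synthesis from glutamate, had 0.984, 0.208 and 1.81 FPKM in the WT libraries and 2.97, 5.23 and 5.32 FPKM in the Cfp1-cKO libraries. Its WT values were spread widely, yet all lay below the Cfp1-cKO values. The log2 fold change was 1.51 (SE 0.32, limma adjusted p = 0.0177), and 1.24 (limma adjusted p = 0.0553) after scaling. Without Cfp1-cKO 2, Cfp1-cKO 3 or WT 1 the adjusted p from limma was 0.0678, 0.0561 and 0.0514. Pycr1, the next enzyme of proline synthesis, was too low to be tested, with 0.101, 0.0539 and 0.282 FPKM in the WT libraries and 0.313, 1.30 and 0.437 FPKM in the Cfp1-cKO libraries. Its 33 fragments in WT and 140 in Cfp1-cKO libraries give a ratio of 4.66 relative to the library totals (95% exact interval 3.17 to 7.04, for counting error only). It was 2.65 without Cfp1-cKO 2 and 8.26 without WT 3.

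Phgdh, the entry to serine synthesis, had 0.602, 0.854 and 0.737 FPKM in the WT libraries and 1.26, 4.15 and 2.26 FPKM in the Cfp1-cKO libraries. These groups did not overlap, and Cfp1-cKO 2 was again the highest. The change on the log2 scale was 0.96 (SE 0.28, limma adjusted p = 0.0419), or 0.70 (limma adjusted p = 0.142) after scaling. The call ended without Cfp1-cKO 2 (0.65, limma adjusted p = 0.112), Cfp1-cKO 3 (0.0936), WT 1 (0.115), WT 2 (0.0640) or WT 3 (0.0629). The later serine enzymes changed less on average, with log2 fold changes of 0.26 for Psat1 and 0.34 for Psph, and neither was called. Psph shares 452 exon bases with Cct6a on the opposite strand. Shmt2, which passes a carbon of serine to folate in mitochondria, was at 0.46 without a call.

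The remaining low members of this role were Mthfd1l, a mitochondrial folate enzyme, and Cth, which makes cysteine. Mthfd1l had 0.219, 0.993 and 0.238 FPKM in the WT libraries and 0.833, 1.56 and 0.613 FPKM in the Cfp1-cKO libraries. Cth had 0.284, 0.532 and 0.517 FPKM in the WT libraries and 0.313, 0.451 and 0.418 FPKM in the Cfp1-cKO libraries. Both overlapped between the groups.

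Among the 4 amino acid transporters, Slc7a5 was called higher of 3 tested. Slc7a5, the light chain of a leucine exchanger, had 0.808, 0.787 and 1.14 FPKM in the WT libraries and 1.95, 3.91 and 2.16 FPKM in the Cfp1-cKO libraries. Every Cfp1-cKO value exceeded the WT values, with a log2 fold change of 0.91 (SE 0.22, limma adjusted p = 0.0262) as deposited and 0.64 (limma adjusted p = 0.0936) after scaling. The call ended without Cfp1-cKO 2 (0.68, limma adjusted p = 0.0785), Cfp1-cKO 3 (0.0512), WT 1 (0.0829) or WT 2 (0.0521). Its partner Slc3a2, the shared heavy chain, ranged from 5.92 to 8.27 FPKM in WT and from 8.20 to 9.47 FPKM in Cfp1-cKO hearts, with a log2 fold change of 0.31, or -0.08 after scaling. Slc7a1, an importer of arginine and lysine, ranged from 2.26 to 2.66 FPKM in WT and from 3.18 to 4.46 FPKM in Cfp1-cKO hearts (log2 fold change 0.44, limma adjusted p = 0.0787). Slc7a11, the cystine importer, was near the detection limit, with 0.0253, 0.0267 and 0.00798 FPKM in the WT libraries and 0.0258, 0.0517 and 0.0558 FPKM in the Cfp1-cKO libraries. This corresponds to 17 and 33 fragments over the respective groups, a ratio of 2.13 with a 95% exact counting interval of 1.16 to 4.09.

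The 6 tRNA synthetases were all tested, and Nars and Wars were called higher. Nars, for asparagine, had 27.6, 28.3 and 29.1 FPKM in the WT libraries and 42.3, 51.3 and 41.3 FPKM in the Cfp1-cKO libraries. The WT values were tight and all lay below the Cfp1-cKO values. In the fit the log2 fold change was 0.64 (SE 0.15, limma adjusted p = 0.0217), or 0.21 (limma adjusted p = 0.417) after scaling, with which the groups overlapped. The call ended without Cfp1-cKO 2 (limma adjusted p = 0.0957) or WT 1 (0.0810).

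Wars, for tryptophan, had 6.94, 4.02 and 8.64 FPKM in the WT libraries and 11.8, 12.8 and 12.5 FPKM in the Cfp1-cKO libraries. Its Cfp1-cKO values lay close together above all WT values, as deposited and after scaling. The log2 fold change was 0.88 (SE 0.23, limma adjusted p = 0.0328), and 0.48 (limma adjusted p = 0.216) after scaling. Without Cfp1-cKO 1, 2 or 3 or WT 1 the adjusted p from limma was 0.0633, 0.108, 0.0832 and 0.0750. Wars is also a gene raised by interferon, unlike most synthetases.

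The other 4 synthetases, Aars (alanine), Sars (serine), Gars (glycine) and Eprs (glutamate and proline), had log2 fold changes between 0.34 and 0.59 and were not called. Aars came closest, at 0.59 (SE 0.20, limma adjusted p = 0.0584), and passed without WT 3 (0.0428) and by limma-voom (adjusted p = 0.0449). Its exons share 1326 bases with Exosc6 on the same strand. After scaling the 4 lay between -0.08 and 0.21, with Gars and Eprs below 0. As a role, the synthetases had a median log2 fold change of 0.54, or 0.15 after scaling.

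Both secreted factors are hormones of the stress response, and they differed in detection. Gdf15 (ENSMUSG00000038508, chr8:70629393-70632456) had 0.0476, 0.0573 and 0.0900 FPKM in the WT libraries and 5.02, 1.49 and 0.749 FPKM in the Cfp1-cKO libraries. The lowest Cfp1-cKO value was more than 8 times the highest WT value, and the highest was in Cfp1-cKO 1. In fragments these are 7 over the WT and 252 over the Cfp1-cKO libraries, a ratio of 39.6 relative to the totals (95% exact interval 18.9 to 99.5, for counting error only). Of the 252, 181 came from Cfp1-cKO 1, and without it the ratio was 17.4 (8.03 to 44.9). On the log2(FPKM + 1) scale the change was 1.48 (SE 0.40, limma adjusted p = 0.0332), and 1.34 (limma adjusted p = 0.0997) after scaling. Without Cfp1-cKO 1 it was 0.97 (limma adjusted p = 0.0352). The call ended without Cfp1-cKO 2 (limma adjusted p = 0.0794), WT 1 (0.0856) or WT 2 (0.0616).

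Fgf21 had 0 FPKM in each WT library and 0.0540, 0 and 0.0584 FPKM in the Cfp1-cKO libraries, which is 2 fragments in all. A count of 0 over the WT libraries allows up to 0.0530 FPKM (3 fragments over the group). No difference in Fgf21 was detectable at this depth.

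Of the 7 feedback and stress effectors, Sesn2 was called higher, and the role's median log2 fold change was 0.29, or -0.14 after scaling. Sesn2, a sestrin that restrains the growth kinase mTORC1, had 0.583, 0.595 and 0.719 FPKM in the WT libraries and 1.03, 2.33 and 2.38 FPKM in the Cfp1-cKO libraries. The groups did not overlap, and Cfp1-cKO 1 was the lowest of its group. On the log2 scale the difference was 0.80 (SE 0.22, limma adjusted p = 0.0372), or 0.56 (limma adjusted p = 0.123) after scaling. Leaving out Cfp1-cKO 2 (limma adjusted p = 0.128), Cfp1-cKO 3 (0.106), WT 1 (0.108), WT 2 (0.0682) or WT 3 (0.0508) ended the call. Trib3, a pseudokinase that inhibits Atf4 and Akt, ranged from 0.456 to 0.974 FPKM in WT and from 0.990 to 2.71 FPKM in Cfp1-cKO hearts, with a log2 fold change of 0.61 (limma adjusted p = 0.108).

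Vldlr, a lipoprotein receptor induced by Atf4, had the opposite direction. It had 26.1, 41.0 and 28.4 FPKM in the WT libraries and 20.9, 19.6 and 21.3 FPKM in the Cfp1-cKO libraries. All Cfp1-cKO values lay below the WT values and within a narrow range (20.6 ± 0.863 FPKM, SD, n = 3). Its log2 fold change was -0.58 (SE 0.19, limma adjusted p = 0.0550) as deposited and -1.01 (SE 0.21, limma adjusted p = 0.0341) after scaling, with which it was called lower. The scaled call ended without Cfp1-cKO 1 (limma adjusted p = 0.0755), Cfp1-cKO 2 (0.136), Cfp1-cKO 3 (0.0879) or WT 1 (0.0757).

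Ddit4, an mTORC1 inhibitor also driven by hypoxia and glucocorticoids, ranged from 38.3 to 93.6 FPKM in WT and from 30.5 to 43.3 FPKM in Cfp1-cKO hearts. The change on the log2 scale was -0.76 (SE 0.30, limma adjusted p = 0.0927), or -1.19 (limma adjusted p = 0.0767) after scaling, and -1.07 (limma adjusted p = 0.0227) without WT 3. Chac1, which degrades glutathione, ranged from 1.00 to 3.02 FPKM in WT and from 0.690 to 1.39 FPKM in Cfp1-cKO hearts. In the fit the log2 fold change was -0.60 (SE 0.29, limma adjusted p = 0.138), or -0.93 (limma adjusted p = 0.0251) without WT 2, its lowest WT library. Ppp1r15a, the stress-induced eIF2alpha phosphatase subunit also called Gadd34, and Eif4ebp1, an inhibitor of cap-dependent translation, had log2 fold changes of 0.52 and 0.29 without a call, and the groups overlapped for both.

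The Cfp1-cKO libraries were not alike. Of the 30 tested members, 16 had their highest value in Cfp1-cKO 2, against 34.2% of all tested genes. There were 5 in Cfp1-cKO 1, against 11.1%, and 4 in Cfp1-cKO 3, against 34.7%. After scaling the count for Cfp1-cKO 2 was 11, against 18.4%. Asns, Mthfd2, Phgdh, Slc7a5, Trib3 and Aars, with Atf5, Psat1 and the other synthetases Gars, Sars, Wars, Nars and Eprs, were among those highest in Cfp1-cKO 2. Atf4, Atf3, Gdf15, Ppp1r15a and Slc3a2 were highest in Cfp1-cKO 1. Psph, Shmt2, Aldh18a1 and Sesn2 were highest in Cfp1-cKO 3. These places are for the values as deposited. After scaling, Atf4, Slc3a2 and Ppp1r15a were highest in WT 2, and Gars, Eprs and Shmt2 in WT 3. Ddit3, Nupr1 and Wars were then highest in Cfp1-cKO 1. Libraries of a group carry no order, and these differences were not tested.

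**Figure D4:**
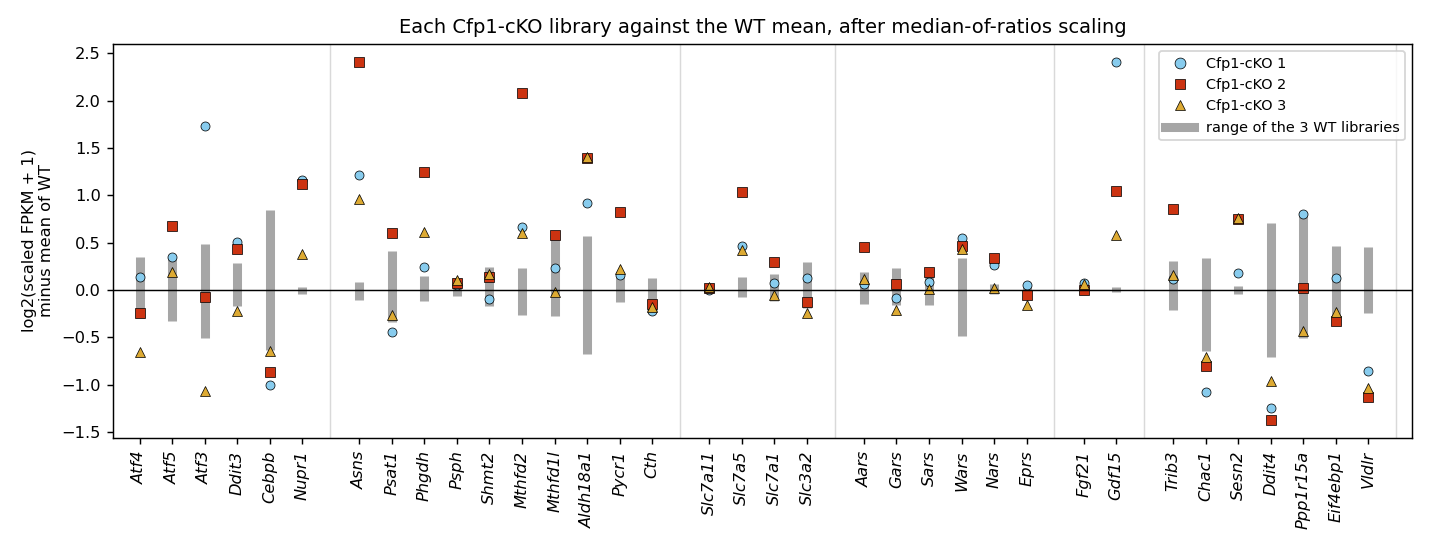
Each Cfp1-cKO library minus the WT mean on log2(FPKM + 1) after median-of-ratios scaling, for all 35 members in order of role; grey bars give the range of the 3 WT libraries around their mean. Cfp1-cKO 2 (squares) stands out for Asns, Mthfd2, Phgdh and Slc7a5, and Cfp1-cKO 1 (circles) for Atf3 and Gdf15.

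Related genes that are not members were read from 7 lists. Each is to be read beside all tested genes, of which 21.1% were called higher and 1.68% lower, with a median log2 fold change of 0.35. After scaling these were 3.74%, 3.25% and 0.00. Among 15 genes of the eIF2alpha kinases and eIF2 control, 3 were called higher, with a median log2 fold change of 0.41. They were Eif2ak2, the kinase Pkr that senses double-stranded RNA (log2 fold change 1.04, limma adjusted p = 0.0184), the eIF2 subunit Eif2s3x (0.93) and the exchange factor subunit Eif2b5 (0.62). After scaling limma called none of the 15, and 1 in each direction had an unadjusted p below 0.05. The kinases Eif2ak1, Eif2ak3 and Eif2ak4 had log2 fold changes of 0.44, 0.41 and 0.08 without a call. Of 14 other cytosolic tRNA synthetases, 5 were called higher, led by Rars (0.73), Lars (0.63), Hars (0.54) and Vars (0.56), and their median was 0.53. It was 0.11 after scaling, when limma called none and 1 was lower at an unadjusted p below 0.05. As deposited, the median of the member synthetases was 0.54. Of 17 mitochondrial tRNA synthetases, none was called as deposited by limma or limma-voom (median 0.31) and 1 was higher at an unadjusted p below 0.05. Iars2 and Fars2 were called lower after scaling, both at -0.68.

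Of 12 tested genes of other amino acid and one-carbon metabolism, 1 was called higher, beside 21.1% of all tested genes. This was Pck2, a mitochondrial enzyme that makes phosphoenolpyruvate, at 0.82 (limma adjusted p = 0.0357). The list's median log2 fold change was 0.10, or -0.25 after scaling. As deposited, limma had 3 of the genes higher and 3 lower at an unadjusted p below 0.05. After scaling the aspartate aminotransferases Got1 and Got2 were called lower at -0.93 and -0.98. Of 7 other amino acid transporters tested, 4 were called higher (Slc43a2, Slc1a4, Slc38a1 and Slc1a5), beside 21.1% of all tested genes, with a median of 0.68. Slc38a2, the most abundant of the list, was lower at an unadjusted p below 0.05 by limma without a call. Its log2 fold change was -0.60, or -1.04 after scaling. The list's sum, mostly Slc38a2, ranged from 144 to 213 FPKM in WT and from 97.2 to 154 FPKM in Cfp1-cKO libraries. After scaling the median was 0.31 and limma called none, with 3 higher and 1 lower at an unadjusted p below 0.05. Slc1a4, a transporter of alanine and serine, had 0.381, 0.338 and 0.467 FPKM in the WT libraries and 1.57, 3.06 and 1.19 FPKM in the Cfp1-cKO libraries. Like Asns it did not overlap and was highest in Cfp1-cKO 2.

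Among 20 chaperones and folding factors of the endoplasmic reticulum, 10 were called higher, beside 21.1% of all tested genes. They were led by Edem1 (0.76), Pdia6 (0.78), Creld2 (0.88) and Pdia3 (0.70). Herpud1, a degradation factor of that compartment, was called lower at -1.38 (limma adjusted p = 0.0282). After scaling limma called none of the 20 higher, with 5 at an unadjusted p below 0.05, and Herpud1 and the chaperone Hspa5 were called lower, at -1.81 and -0.69. Of 11 mitochondrial chaperones and proteases, the protease Lonp1 was called higher at 0.75 and Clpx lower at -0.71, and after scaling Clpx alone was called, at -1.14.

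**Figure D5:**
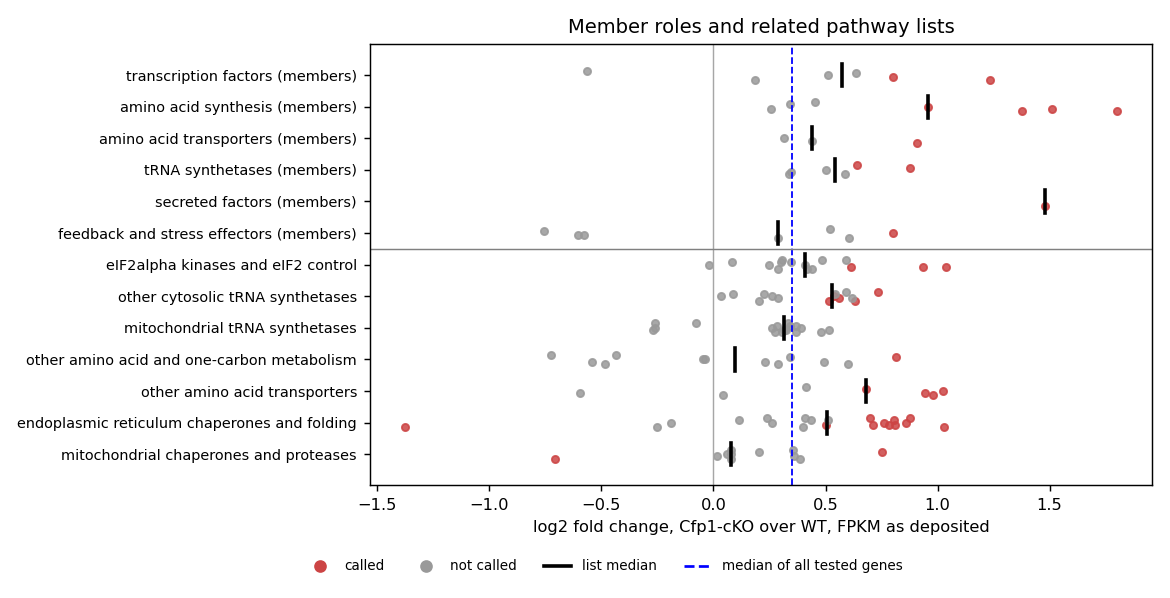
Log2 fold change (Cfp1-cKO over WT, FPKM as deposited) of every tested gene in the 6 member roles (above the line) and the 7 related lists (below it); red points were called, black bars are list medians and the dashed line is the median of all tested genes. Amino acid synthesis has a median of 0.96, and the mitochondrial chaperones and proteases 0.08.

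Of 10 cardiomyocyte markers, Ryr2, Myl3 and Tnnt2 were called lower. Mybpc3, Nkx2-5 and Actn2 had log2 fold changes of 0.48, 0.47 and 0.33, and Myh6, Actc1, Tnnc1 and Ttn lay between -0.39 and -0.08, none of them called. The cardiomyocyte sums, in which Actc1 and Myh6 were the highest, overlapped between the groups. They ranged from 8510 to 16422 FPKM in WT and from 7634 to 11114 FPKM in Cfp1-cKO libraries. Sums of the 6 fibroblast markers (Dcn and Col3a1 highest) ranged from 253 to 335 FPKM in WT and from 406 to 601 FPKM in Cfp1-cKO libraries, with no call by limma, 2 higher by limma-voom and 4 higher at an unadjusted p below 0.05. Those of the 6 endothelial markers (Cdh5 and Pecam1 highest, Vwf and Cdh5 called higher) ranged from 106 to 137 and from 142 to 214 FPKM. The 5 erythroid markers (Hbb-bs and Hba-a1 highest) summed to 59.7, 1007 and 102 FPKM in WT and to 1193, 1887 and 233 FPKM in Cfp1-cKO libraries, so Cfp1-cKO 2, where 16 members peaked, was also the highest in these and in the fibroblast and endothelial sums. In the lung epithelium sum Cfp1-cKO 2 was the lowest of its group, but the listed markers differed in this. Scgb1a1 had 2904, 405 and 671 FPKM in Cfp1-cKO 1, 2 and 3, and Sftpc had 1202, 2163 and 3232 FPKM. Within the group, Scgb1a1 and Ager were lowest in Cfp1-cKO 2, Scgb3a2 in Cfp1-cKO 3 and the other lung markers in Cfp1-cKO 1. The part of these cell types and of the mitochondrial share in the member changes was likewise not tested. The extraction text in the labels speaks of retinas, but 5 retina markers in the table summed to at most 0.166 FPKM in any library, and the cardiomyocyte markers were high in all 6.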

How the data were processed

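RNA-seq values of 3 WT and 3 Cfp1-cKO heart libraries were used. The authors deposited FPKM per gene in a plain and an annotated table, whose values were identical for all 26881 genes; pooling and the strand setting of the counting are not given in the sources used here. The submitters' processing notes list, in no order, CASAVA, DESeq2, TopHat2, Bowtie2 2.2.3, HTSeq 0.6.0 and HISAT2 2.1.0 with the build GRCm38, and the paper's methods give the address of a chicken genome. With exon lengths of GENCODE M21 or a fitted length, FPKM were whole fragments within 0.001 in every library for 99.9926% of genes, which gave the library totals. Groups were compared with limma 3.58.1 (R 4.3.3), with a variance trend, on log2(FPKM + 1). Genes entered if they averaged 1 FPKM or more (11017), and p-values were adjusted (Benjamini-Hochberg) over all of them. The procedure was run on simulated fragments with some genes raised and no shift in overall level. That setting does not cover the level shift between these groups. Fragment ratios have exact Clopper-Pearson intervals. Python 3.11.15 with scipy 1.17.1 and matplotlib 3.10.9 served for tables and plots.

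The members, the related lists and the marker lists were chosen with earlier results of these data known. Values in every library are given for called members, for members too low to test and for Atf4, Ddit3, Fgf21 and Gdf15; other members are given by range or fold change. Up to 4 called genes of lowest p are named from each related list, and up to 2 of the highest genes from each marker list. Genes named beyond that, such as the uncalled kinases, were chosen after their values were seen. Alternatives covered pseudocounts, filters, scaling, moderation, library weights, the replicate number, fold thresholds, limma-voom and each library left out. RefSeq gave no promoter window for Cth, Slc7a5, Wars, Nars and Eif4ebp1.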

Additional observations from a re-analysis of the deposited data

How the results depend on the processing

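Against 11 members called higher and none lower, TMM and median-of-ratios scaling each gave 1 higher and 1 lower (366 and 412 genes higher, 421 and 358 lower), and the members' median log2 fold change was 0.11 and 0.16. A filter at a mean of 5 FPKM left 3 members and 1027 genes higher, and no filter 3 members, 1518 genes higher and 91 lower. Library weights gave 18 members higher and 3 lower (4027 and 372 genes). Leaving out the mitochondrially encoded and haemoglobin genes gave 5 members higher and 1 lower (1459 genes higher), and a fold threshold of 1 gave 5 members higher (666 genes higher, 77 lower). Pseudocounts of 0.1 and 0.5, moderation without a trend and no fold threshold gave 11 each, and limma-voom 13 (2730 genes higher, 167 lower). With each library left out in turn, members called higher ranged from 1 to 11 and lower from 0 to 1, and genes higher from 538 to 2588 and lower from 50 to 201.

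Signs turned with TMM and median-of-ratios scaling for Atf4 (-0.31 and -0.25), Psat1 (-0.074 and -0.033), Slc3a2 (-0.13 and -0.080), Gars (-0.14 and -0.076), Eprs (-0.11 and -0.052) and Eif4ebp1 (-0.20 and -0.14). Eif4ebp1 was at -0.14 with library weights. With a library left out, Atf3 ranged from -0.22 (without Cfp1-cKO 1) to 1.14 and Psat1 from -0.097 (without Cfp1-cKO 2) to 0.52. Leave-one-out under median-of-ratios scaling and for folds of means and fragment ratios was added after seeing the data. The scaling sets the level against which a change is read; the cause of the other shifts was not tested.

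With the replicate number as a block, 5 members were called higher (Aldh18a1, Asns, Nars, Nupr1 and Phgdh), beside 1597 genes. The deviations of same-numbered libraries correlated at 0.108, 0.036 and 0.104, so the numbers were not taken to pair the samples, although each library correlated best with its own number. The filter limits what can be said of 5 members below it.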
